A study of Homo sapiens with 4 samples.

Results

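The MYC, MAX and MXD network is a set of transcription factors that compete for shared partners and for the same short DNA site. It was followed here in MDA-MB-231 cells, an established human line of triple-negative breast cancer. The 10 members were the rows of the count table whose Ensembl gene ID maps to MYC, MAX, MXD1, MXD3, MXD4, MXI1, MNT, MLX, MLXIP or MGA, out of 20263 genes in the table. All 10 had enough counts to be tested, among 13612 tested genes. Cells were treated for 24 h with RB-1, described in the series title as derived from ribociclib, an inhibitor of the kinases CDK4 and CDK6, or with the solvent DMSO. RB-1 is known here by its code name, no dose is given in the labels, and each group had 2 libraries of mRNA. All cells grew in DMEM with serum and antibiotics. Nothing in the labels ties the 2 libraries of a group to separate cultures, and p-values then measure only how far these samples scatter, which may be technical.

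MYC, MAX and the MXD proteins bind DNA as pairs through a basic helix-loop-helix leucine zipper, at a site called the E-box. MAX is the common partner: with MYC it forms a pair that raises transcription of genes for growth and ribosome production, and MXD1, MXD3, MXD4, MXI1 (also called MXD2), MNT and MGA compete with MYC for it. The MXD proteins and MNT bring in the SIN3 corepressor and histone deacetylases, while MGA, which also has a T-box, belongs to a Polycomb complex named PRC1.6. MLX is a second common partner. It pairs with MLXIP, also called MondoA, which responds to glucose phosphates, and with some MXD proteins and MNT. In triple-negative breast cancer MYC is often amplified or highly expressed.

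In RB-1 cells the transcript of MXI1, an antagonist of MYC, was 3.03-fold higher and that of MGA 4.38-fold lower, and no other member passed the test. MYC itself did not pass: it had nearly equal levels in the RB-1 libraries and a 3.61-fold difference between the DMSO libraries. One member called higher is 10.0% of the 10, where 12.8% of all tested genes were called higher, and 1 called lower is 10.0%, where 16.1% of all tested genes were called lower. The members' share of calls was therefore near that of the table as a whole. A call means that edgeR's quasi-likelihood test gave a p under 0.05 after Benjamini-Hochberg adjustment over all tested genes. The median log2 fold change, RB-1 over DMSO, was 0.18 over the members and 0.012 over all tested genes.

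Promoters of the members that the results turn on, or that hold the network's own site, are shown first, from RefSeq on build GRCh38.p14. The RefSeq table gives windows of 300 bases, 250 before and 50 after an annotated start, and 9 of the 10 members matched with 14 windows; MYC did not. Windows were searched on both strands for the E-box CACGTG and for ACGTG, a core that every CACGTG also contains. For MXI1 and MGA, the members that passed the test, the window with a match is given whole. Of the 3 windows of each gene it is the only one with ACGTG, in 1 copy, and none has CACGTG. Capitals mark the copy, which in MXI1 lies on the opposite strand and so reads CACGT.
MXI1, chr10:110209981-110210280, plus strand: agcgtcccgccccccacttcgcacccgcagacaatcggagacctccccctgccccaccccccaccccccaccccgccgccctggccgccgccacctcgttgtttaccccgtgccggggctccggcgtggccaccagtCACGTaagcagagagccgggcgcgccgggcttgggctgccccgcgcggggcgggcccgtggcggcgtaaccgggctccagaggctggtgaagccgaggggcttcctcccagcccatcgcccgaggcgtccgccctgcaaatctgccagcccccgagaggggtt
MGA, chr15:41660155-41660454, plus strand: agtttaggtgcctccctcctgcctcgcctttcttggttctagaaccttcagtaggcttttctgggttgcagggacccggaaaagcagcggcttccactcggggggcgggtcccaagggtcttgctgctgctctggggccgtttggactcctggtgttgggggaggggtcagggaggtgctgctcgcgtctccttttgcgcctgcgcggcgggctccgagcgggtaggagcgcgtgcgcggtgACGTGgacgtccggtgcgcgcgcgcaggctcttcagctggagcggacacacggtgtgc

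CACGTG occurred in 1 window each of MXD4, MNT and MLX, 3 of the 14 member windows, and in 7.26% of the 35116 windows in the RefSeq table. ACGTG occurred in 6 of the 14 member windows, each of another member, and in 21.4% of all windows. The stretches around the E-box are shown for these antagonists and for the second common partner, with the E-box in capitals. None of these 3 members passed the test between RB-1 and DMSO. A match is a match of letters and says nothing on binding.
MXD4, chr4:2262322-2262359, minus strand: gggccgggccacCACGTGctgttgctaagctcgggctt
MNT, chr17:2401228-2401273, minus strand: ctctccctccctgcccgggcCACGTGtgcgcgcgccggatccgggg
MLX, chr17:42567030-42567075, plus strand: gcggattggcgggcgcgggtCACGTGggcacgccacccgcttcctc

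The libraries held 36081265 and 34122874 counts for RB-1 and 34774542 and 37754168 for DMSO. Markers of the line, VIM, CD44, EGFR and AXL, lay between 416 and 5423 CPM, counts per 1000000 counts of the TMM-scaled library, while ESR1, PGR, CDH1, PTPRC and PECAM1, genes of hormone-receptor-positive or epithelial tumour cells, leukocytes and endothelium, stayed at or below 1.77 CPM. In bulk RNA, fewer cells of a kind and less transcript per cell cannot be told apart. The balance of calls over all genes moved with the scaling: TMM factors gave 1737 higher and 2189 lower, against 2171 higher and 1830 lower with upper-quartile factors and 2059 higher and 1400 lower with library totals alone. The median log2 fold change of all genes moved up by 0.11 and 0.20 under these, while the 2 calls among the members held under both.

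MYC (ENSG00000136997), the activating partner, had 31.9 and 31.3 CPM in the RB-1 libraries, against 8.11 and 29.3 CPM in the DMSO libraries. Both RB-1 libraries lay above both DMSO libraries, but DMSO replicate 2 was close to them and DMSO replicate 1 stood far below. The means were 31.6 ± 0.468 CPM in RB-1 and 18.7 ± 15.0 CPM in DMSO (SD, n = 2 each). The log2 fold change was 0.76 ± 0.54 (SE; 95% interval -0.53 to 2.05; edgeR's quasi-likelihood adjusted p = 0.335). This value depended on which DMSO library was kept. The log2 fold change was 0.11 without DMSO replicate 1 and 1.98 without DMSO replicate 2. The counts behind it were 1205 and 1171 in RB-1 and 283 and 960 in DMSO, so the gap between the DMSO libraries was not one of low counts. Only 1.95% of tested genes were at least as far apart between the DMSO libraries. With 2 DMSO libraries, these values cannot show which of them is unusual for MYC. In DMSO replicate 2 the top gene, MT-CO1, took 5.02% of counts, against 2.24% in DMSO replicate 1 and 1.21% and 1.76% in RB-1. DMSO replicate 2 also had the lowest TMM factor, 0.868. Whether this bears on MYC was not tested.

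**Figure D1:**
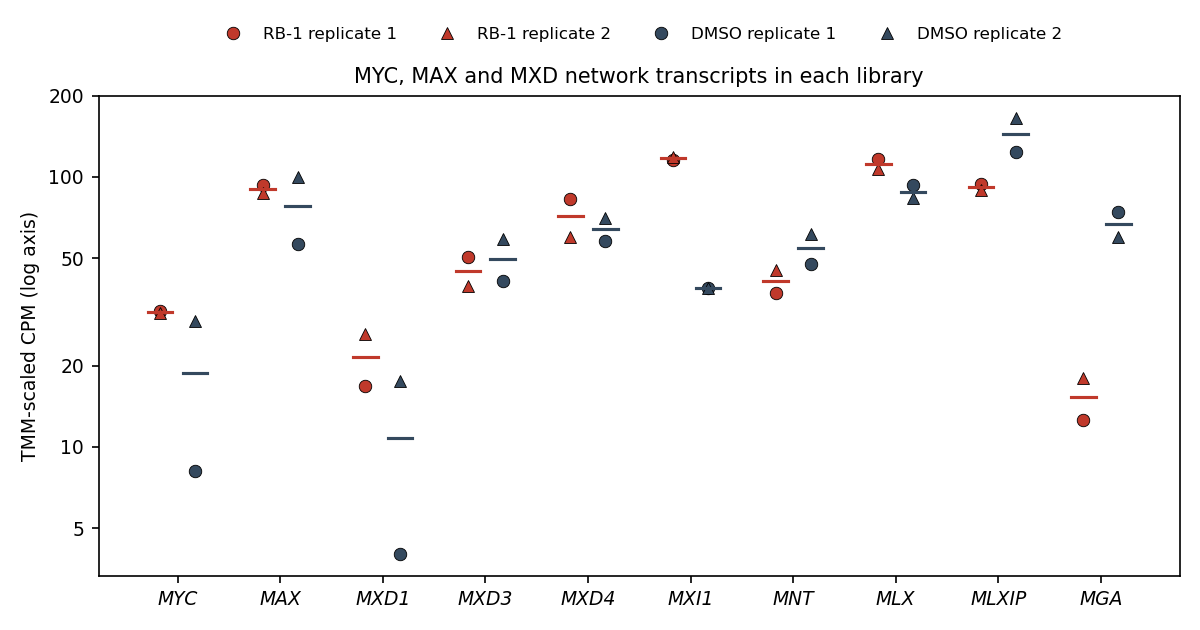
Level of each member in each library, in CPM on a log axis, with 2 RB-1 and 2 DMSO libraries per gene. The RB-1 points lie above both DMSO points for MXI1, MLX and, narrowly, MYC and below both for MNT, MLXIP and MGA, and MYC and MXD1 have 1 low DMSO point each.

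MAX (ENSG00000125952), the common partner, had 93.6 and 87.2 CPM in RB-1, against 56.4 and 100.3 CPM in DMSO. The RB-1 libraries lay between the DMSO libraries, so the groups overlapped. Its log2 fold change of 0.21 ± 0.30 (95% interval -0.46 to 0.87; edgeR adjusted p = 0.633) turned to -0.15 without DMSO replicate 1. MAX, MYC and MXD1 all had their lowest level in DMSO replicate 1.

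MXI1 (ENSG00000119950), which pairs with MAX and represses through SIN3, had 116.0 and 118.7 CPM in RB-1, against 38.7 and 38.8 CPM in DMSO. The groups were far apart and replicates nearly coincided, with means of 117 ± 1.90 CPM in RB-1 and 38.7 ± 0.0260 CPM in DMSO (SD, n = 2 each). The transcript rose by a log2 fold change of 1.599 ± 0.25 (95% interval 1.05 to 2.15; edgeR adjusted p = 0.00179). Leaving out any 1 library gave 1.58 to 1.62, each past the threshold. A log2 fold change this high or higher was seen in 3.77% of all tested genes.

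The other MXD genes did not pass the test. MXD1 (ENSG00000059728), the founding member of the MXD antagonists, had 16.8 and 26.1 CPM in RB-1, against 4.01 and 17.5 CPM in DMSO. As with MYC, DMSO replicate 1 was low, the DMSO libraries were 4.37-fold apart, and the groups overlapped. The log2 fold change was 0.996 ± 0.69 (95% interval -0.73 to 2.72; edgeR adjusted p = 0.329), 0.29 without DMSO replicate 1 and 2.44 without DMSO replicate 2 (edgeR adjusted p = 0.00747). Of the 10 members, 0 were over 2-fold apart in the RB-1 pair and 2 in the DMSO pair, where 8.98% of all tested genes were that far apart in the RB-1 pair and 6.77% in the DMSO pair.

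MXD3 (ENSG00000213347), an antagonist otherwise linked to dividing cells, had 50.4 and 39.6 CPM in RB-1, against 41.0 and 58.7 CPM in DMSO. The groups overlapped, with a log2 fold change of -0.15 ± 0.29 (95% interval -0.79 to 0.50; edgeR adjusted p = 0.732). Its sign turned with library totals alone and without DMSO replicate 2 or RB-1 replicate 2, and its counts are uncertain because 18.0% of its exon bases are shared with RAB24 on the same strand and 22.5% with PRELID1 on the opposite strand. MXD4 (ENSG00000123933) had 83.1 and 60.1 CPM in RB-1, against 57.7 and 70.7 CPM in DMSO. Its groups overlapped too, at a log2 fold change of 0.16 ± 0.27 (95% interval -0.45 to 0.76; edgeR adjusted p = 0.696), which turned to -0.093 without RB-1 replicate 1.

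MNT (ENSG00000070444), an antagonist present in resting and dividing cells, had 37.3 and 45.4 CPM in RB-1, against 47.5 and 61.4 CPM in DMSO. Both RB-1 libraries were lower, narrowly, and the difference did not pass the test (log2 fold change -0.40 ± 0.28, 95% interval -1.01 to 0.22, edgeR adjusted p = 0.301). An antisense gene shares 12.2% of its exon bases, with strand use in the counting not given in the sources used here.

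MLX (ENSG00000108788), the second common partner, had 116.3 and 107.4 CPM in RB-1, against 93.1 and 83.5 CPM in DMSO. The groups were apart by less than their fit could call: the log2 fold change was 0.34 ± 0.24 (95% interval -0.18 to 0.87; edgeR adjusted p = 0.301). Of its exon bases 18.1% overlap PSMC3IP on the opposite strand. MLXIP (ENSG00000175727), the glucose-responsive partner of MLX, had 94.2 and 89.2 CPM in RB-1, against 123.8 and 165.5 CPM in DMSO. It lay below both DMSO libraries, at a log2 fold change of -0.66 ± 0.25 (95% interval -1.21 to -0.11), and missed the threshold after adjustment (edgeR unadjusted p = 0.0238, adjusted p = 0.0713).

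MGA (ENSG00000174197), the member with the longest transcript, had 12.5 and 18.0 CPM in RB-1, against 74.0 and 59.9 CPM in DMSO. The groups did not come near each other, with means of 15.3 ± 3.86 CPM in RB-1 and 66.9 ± 9.95 CPM in DMSO (SD, n = 2 each). The transcript fell by 2.13 ± 0.31 on the log2 scale (95% interval -2.81 to -1.46; edgeR adjusted p = 0.00121). Leaving out any 1 library gave -2.42 to -1.89, each past the threshold. Over the 10 members, both RB-1 libraries lay above both DMSO libraries in 3 and below them in 3, where 35.3% of all tested genes lay above and 34.3% below.

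**Figure D2:**
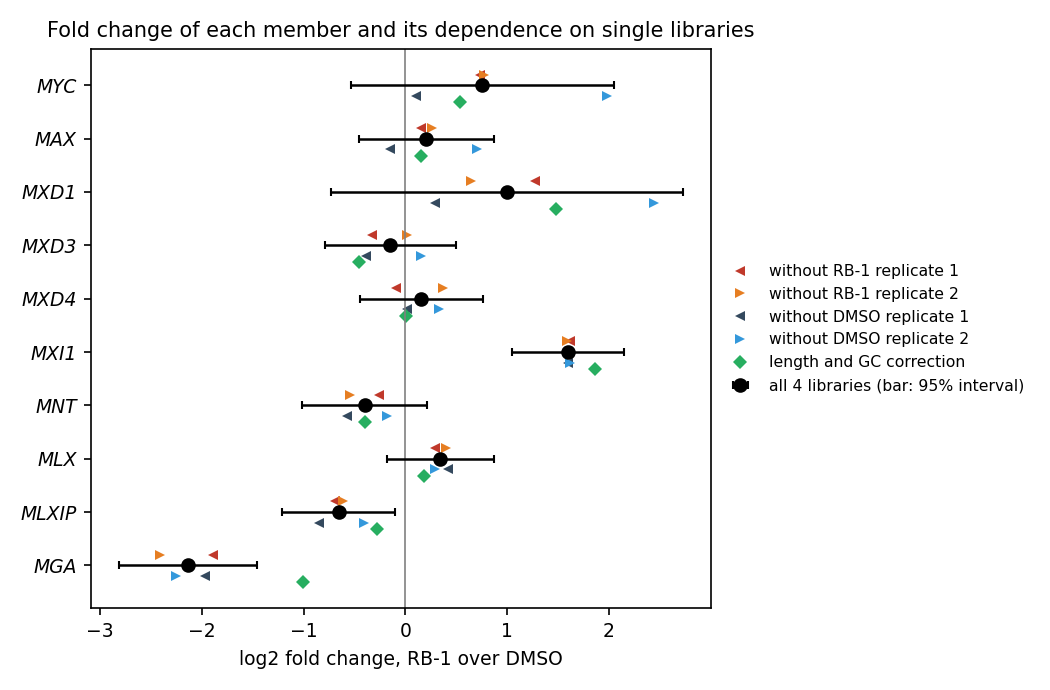
Log2 fold change of each member, RB-1 over DMSO, with its 95% interval, and the value without each library and after the correction for length and GC content. The intervals of MXI1 (1.05 to 2.15), MLXIP (-1.21 to -0.11) and MGA (-2.81 to -1.46) exclude 0, and the values of MYC and MXD1 move most when 1 DMSO library is left out.

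The MGA transcript has 14439 bases in the GENCODE annotation, and fold changes in these libraries followed transcript length. Spearman's coefficient between length and log2 fold change was -0.38 over 13596 genes and -0.44 over the 10 members, as a description across genes, which are not independent replicates and share these 4 libraries. Of the 1156 tested genes with a transcript of at least 8 kb, 39.9% were called lower and 3.63% higher, and their median log2 fold change was -0.72. MGA and MLXIP, at 8427 bases, are the members in that class, and 13.2% of the class had a log2 fold change at or below that of MGA, as did 3.86% of all tested genes. With the correction for length and GC content MGA was lower by a log2 fold change of -1.01 and still passed (edgeR adjusted p = 0.00715). MLXIP then stood at -0.28 and MXI1 at 1.86. How far length accounts for the change of MGA was not tested beyond this correction.

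**Figure D3:**
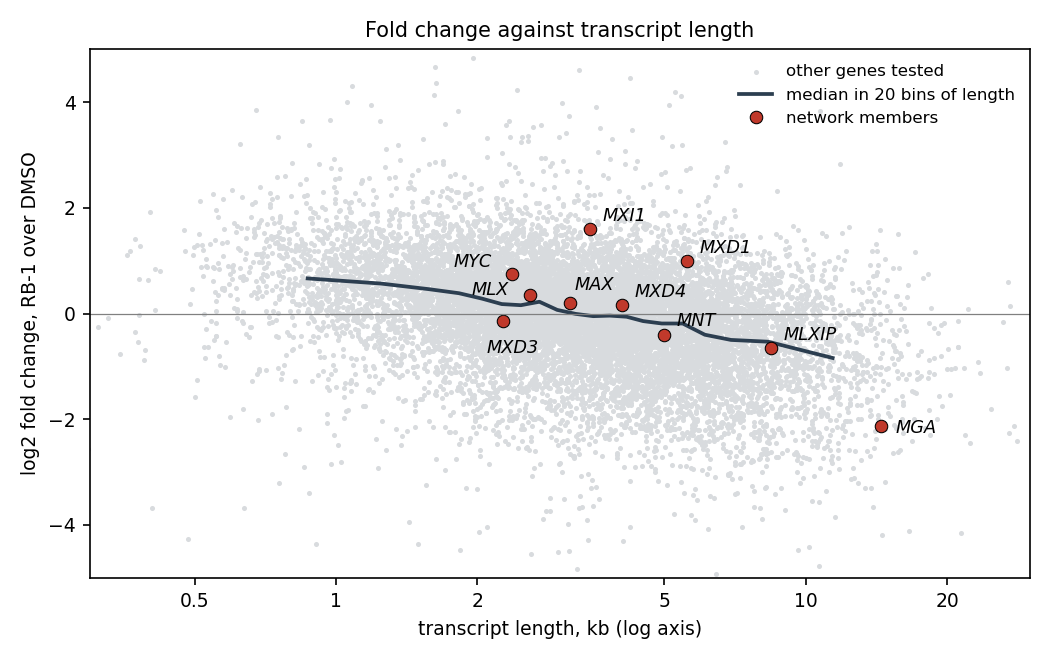
Log2 fold change, RB-1 over DMSO, against the length of the longest protein-coding transcript in kb on a log axis, for 13596 tested genes, with the median in 20 bins of length and the 10 members marked. The median falls with length, MGA (14439 bases) lies below it and MXI1 (3470 bases) above it, and 82 genes lie outside the axes.

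Levels of different members were compared per kb of transcript, as CPM divided by the length of the longest annotated protein-coding transcript. Which transcripts these cells use is not known from gene counts. In RB-1 the order was MLX (43.3 ± 2.43 CPM per kb, SD, n = 2), MXI1 (33.8 ± 0.547), MAX (28.6 ± 1.44), MXD3 (19.8 ± 3.37), MXD4 (17.6 ± 4.01), MYC (13.4 ± 0.198), MLXIP (10.9 ± 0.423), MNT (8.27 ± 1.15), MXD1 (3.84 ± 1.19) and MGA (1.06 ± 0.268). MXD3 and MXD4 were the only neighbours in it whose libraries overlapped. In DMSO the order was MLX (34.1 ± 2.63 CPM per kb, SD, n = 2), MAX (24.8 ± 9.85), MXD3 (22.0 ± 5.50), MLXIP (17.2 ± 3.50), MXD4 (15.8 ± 2.27), MXI1 (11.2 ± 0.00749), MNT (10.9 ± 1.97), MYC (7.91 ± 6.33), MGA (4.64 ± 0.689) and MXD1 (1.93 ± 1.71). There the neighbours from MAX to MXD4 overlapped each with the next, as did those from MXI1 to MGA. MXI1 thus stood the second in RB-1 and the sixth in DMSO, and MGA was the lowest in RB-1.

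Set against each other, the MXD genes and MYC gave no steady ratio in DMSO. The summed level of MXD1, MXD3, MXD4 and MXI1 was 79.1 and 71.2 CPM per kb in RB-1, against 44.2 and 57.6 CPM per kb in DMSO. Both RB-1 sums were higher than both DMSO sums. MXI1 made up 42.2% and 48.1% of that sum in RB-1, against 25.3% and 19.4% in DMSO, so its share did not overlap between the groups. The sum over MYC was 5.86 and 5.38 in RB-1, against 12.9 and 4.65 in DMSO, and the RB-1 ratios lay between the DMSO ratios, of which that of DMSO replicate 1, where MYC was low, was the higher. MXI1 over MYC was 2.48 and 2.59 in RB-1, against 3.26 and 0.902 in DMSO, which overlapped in the same way. MGA made up 0.465% and 0.715% of the summed level of all 10 members in RB-1, against 3.92% and 2.44% in DMSO, without overlap. MLX over MLXIP was 4.02 and 3.93 in RB-1, against 2.45 and 1.64 in DMSO, with no overlap. With 2 libraries against 2 an exact two-sided permutation test cannot go below p = 0.333, and these ratios, chosen with the values known, are given as a description without a test. A lack of overlap was common: both RB-1 libraries lay above both DMSO libraries in 35.3% of all tested genes and below them in 34.3%. The shares of MXI1 and MGA also restate the changes of these members given above.

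**Figure D4:**
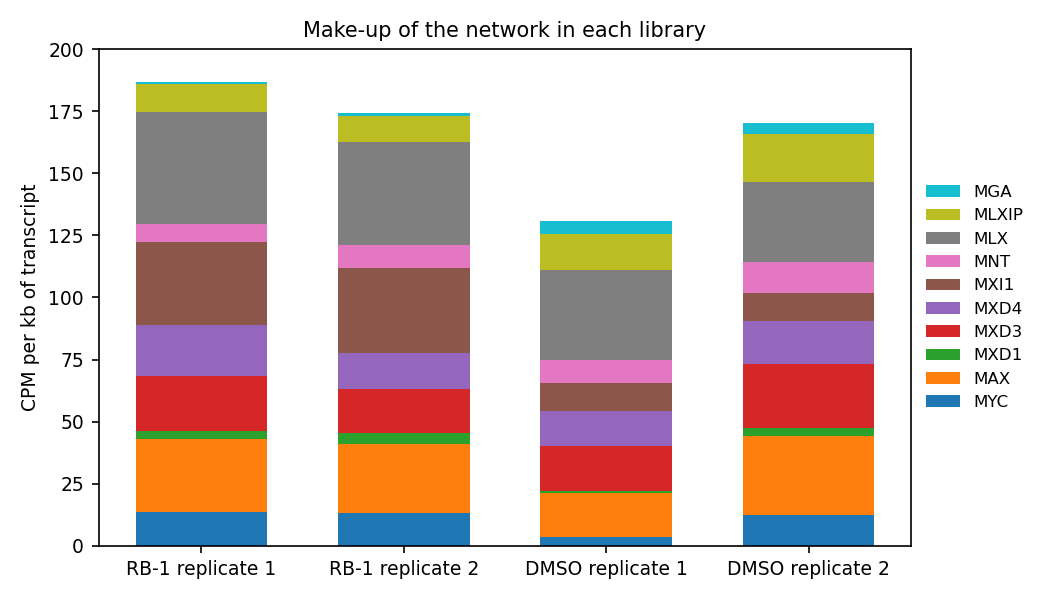
Stacked levels of the 10 members in each library, 2 RB-1 bars and then 2 DMSO bars, in CPM per kb of transcript, with 1 colour per gene. MXI1 takes 42.2% and 48.1% of the MXD sum in the RB-1 libraries and 25.3% and 19.4% in the DMSO libraries, while MYC is low in DMSO replicate 1 alone.

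Genes around the network were taken from lists of textbook knowledge. Of the other proteins of the family, MYCN had 0 counts in all libraries. Neither MYCL (log2 fold change 0.59, edgeR adjusted p = 0.497) nor MLXIPL, the ChREBP partner of MLX (-0.86, edgeR adjusted p = 0.110), passed the test. MYCL was near the limit of counting, with 29 and 34 counts in RB-1 and 30 and 8 counts in DMSO. At an unadjusted p under 0.05 MLXIPL was lower. DESeq2 and limma-voom called neither of these 2 genes, and 1 of them was called lower with the length and GC correction. Of 2 MondoA targets, TXNIP, which restrains glucose uptake, had 570.8 and 576.8 CPM in RB-1, against 171.5 and 200.5 CPM in DMSO. It rose by a log2 fold change of 1.63 ± 0.23 (edgeR adjusted p = 0.00105) and kept its call without any 1 library, while MLXIP itself stood lower without passing. ARRDC4, the other, was near the limit of counting at 0.451 and 0.588 CPM in RB-1 and 0.229 and 0.671 CPM in DMSO (edgeR adjusted p = 0.829).

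Of 20 cofactors of MYC, 9 fell, 0 rose and 11 did not pass, with a median log2 fold change of -0.44, against 0.012 over all genes. The share that fell was 45%, where 16.1% of all tested genes were called lower and 12.8% higher. The largest fall among those named by smallest p was that of BPTF, a subunit of the NURF chromatin remodeller (log2 fold change -2.58 ± 0.30, edgeR adjusted p = 0.000469). The acetyltransferases CREBBP (-1.94 ± 0.31) and EP300 (-1.45 ± 0.32) and the MYC-binding HCFC1 (-1.29 ± 0.25) fell with it. EP300 lost its call without RB-1 replicate 1, and EP300 and HCFC1 lost theirs without DMSO replicate 2. With the length and GC correction all 4 passed, BPTF at a log2 fold change of -1.70. The list's median transcript is 4181 bases, and all 4 named genes exceed 8 kb, the class in which 39.9% of genes were called lower. The count depended on libraries: 3 fell without RB-1 replicate 1, 8 without RB-1 replicate 2, 6 without DMSO replicate 1, 2 without DMSO replicate 2 and 6 with library totals alone. None rose by edgeR, DESeq2 or limma-voom, or at an unadjusted p under 0.05.

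Of 18 SIN3 and NCOR corepressor genes, through which the MXD proteins repress, 4 fell, 0 rose and 14 did not pass, with a median log2 fold change of -0.070. The share that fell was 22.2%, near the 16.1% of all tested genes called lower, where 12.8% were called higher. The 4 were NCOR1 (log2 fold change -1.85 ± 0.28; a transcript over 8 kb), SIN3A, the scaffold that MXD proteins bind (-0.97 ± 0.24), and the SIN3 complex subunits ARID4A (-2.36 ± 0.35) and ARID4B (-1.62 ± 0.34, with 14.5% of exon bases shared with RBM34). Each passed by edgeR's quasi-likelihood test, with 3 to 5 falling when any 1 library was left out. SIN3A lost its call without RB-1 replicate 1 (edgeR adjusted p = 0.0625), without DMSO replicate 2 (0.142), with library totals alone (0.0505) and with the length and GC correction (log2 fold change -0.53, edgeR adjusted p = 0.0666). With that correction NCOR1 stood at -1.07, ARID4A at -1.72 and ARID4B at -0.97, each still past the threshold. None rose by edgeR, DESeq2 or limma-voom, and 1 was higher at an unadjusted p under 0.05. The number called higher was 2 with the length and GC correction and 1 without RB-1 replicate 2, with upper-quartile factors or with library totals alone. Of 10 other PRC1.6 genes, the complex of MGA, 0 passed in edgeR, DESeq2 and limma-voom alike. At an unadjusted p under 0.05 by edgeR's test 2 were higher and 1 lower. YAF2 (log2 fold change 0.81) and PCGF6 (0.69) stood higher and RNF2 (-0.72) and RYBP (-0.50) lower, with edgeR adjusted p from 0.0790 to 0.215, and 3 were called higher with the length and GC correction, 1 higher with upper-quartile factors and 1 lower without RB-1 replicate 2.

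Of 20 genes that stabilise or degrade the MYC protein, 7 fell, 1 rose and 12 did not pass, at a median log2 fold change of -0.44. The share that fell was 35% and the share that rose 5%, against 16.1% and 12.8% of all tested genes. HUWE1 (log2 fold change -1.04 ± 0.23), a ubiquitin ligase that acts on MYC and has a transcript over 8 kb, fell, as did CIP2A (-1.67 ± 0.39), an inhibitor of the phosphatase that destabilises MYC. PIM1, a kinase that stabilises it, rose by 1.49 ± 0.25. These 3 passed at edgeR adjusted p from 0.00240 to 0.0126. HUWE1 stood at a log2 fold change of -0.29 with the length and GC correction and did not pass (edgeR adjusted p = 0.225), nor did it without RB-1 replicate 1 (0.0928) or DMSO replicate 2 (0.0581). CIP2A did not pass without DMSO replicate 1 (edgeR adjusted p = 0.0516), while PIM1 passed in all these fits. Without 1 library the number that fell was 2 (RB-1 replicate 1), 5 (RB-1 replicate 2), 4 (DMSO replicate 1) and 2 (DMSO replicate 2), and 3 rose without RB-1 replicate 2. The number that fell was 3 with library totals alone.

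Of 60 genes known to be induced by MYC, 15 fell, 4 rose and 41 did not pass, with a median log2 fold change of -0.039, against 0.012 over all genes. The share that fell was 25% and the share that rose 6.67%, against 16.1% and 12.8% of all tested genes. UTP20, a ribosome processing factor with a transcript over 8 kb, had 10.7 and 10.6 CPM in RB-1, against 154.1 and 125.2 CPM in DMSO, and fell by 3.71 ± 0.28 on the log2 scale (edgeR adjusted p = 9.23e-05). The nucleolar proteins NCL (log2 fold change -1.42 ± 0.23) and GNL3 (-1.33 ± 0.27) and the sterol-related membrane protein TMEM97 (-1.56 ± 0.32; 11.9% of exon bases shared with IFT20) fell too. TMEM97 lost its call without DMSO replicate 2, and UTP20 stood at a log2 fold change of -2.79 with the length and GC correction, still past the threshold. The 4 genes that rose, chosen once their values had been seen, were EIF4A1 (log2 fold change 1.28), DCTPP1 (1.37), CDK4 (1.03) and HSPE1 (0.87). Each of them shares 14.2% to 43.2% of its exon bases with a neighbouring gene and is uncertain. Among the 15 that fell, NOP2 (log2 fold change -0.91), named for its overlap, shares 54.4% with another gene on the same strand and is uncertain too. Leaving out RB-1 replicate 1 gave 9 that fell and 0 that rose, leaving out RB-1 replicate 2 gave 11 and 5, leaving out DMSO replicate 1 gave 7 and 2, and leaving out DMSO replicate 2 gave 5 and 0. With library totals alone 8 fell and 5 rose.

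Of 8 tested genes known to be repressed by MYC, 5 rose, 0 fell and 3 did not pass, at a median log2 fold change of 0.94. The share that rose was 62.5%, where 12.8% of all tested genes were called higher and 16.1% lower. NDRG1, a stress and differentiation gene, had 903.9 and 982.2 CPM in RB-1, against 381.6 and 418.8 CPM in DMSO (log2 fold change 1.24 ± 0.22, edgeR adjusted p = 0.00347). GADD45A (1.15 ± 0.27), the CDK inhibitors CDKN1A (1.25 ± 0.34), CDKN1C (1.10 ± 0.34) and, named after its values were seen, CDKN1B (0.79 ± 0.26) rose as well. CDKN1A lost its call without RB-1 replicate 1 and without DMSO replicate 2, and GADD45A without either DMSO library. CDKN1C and CDKN1B lost theirs when any 1 library was left out. Of the 5 that rose, only NDRG1 kept its call in all of these fits. With the length and GC correction CDKN1A and CDKN1C did not pass. Several of the 5 genes answer to p53, FOXO or stress signals too, and what raised them here was not tested. Leaving out RB-1 replicate 1 left 2 that rose, RB-1 replicate 2 left 3, DMSO replicate 1 left 2 and DMSO replicate 2 left 1, and 3 rose with the length and GC correction. No gene of the list fell by edgeR, DESeq2 or limma-voom, or at an unadjusted p under 0.05. MYC itself did not pass the test in the same libraries.

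**Figure D5:**
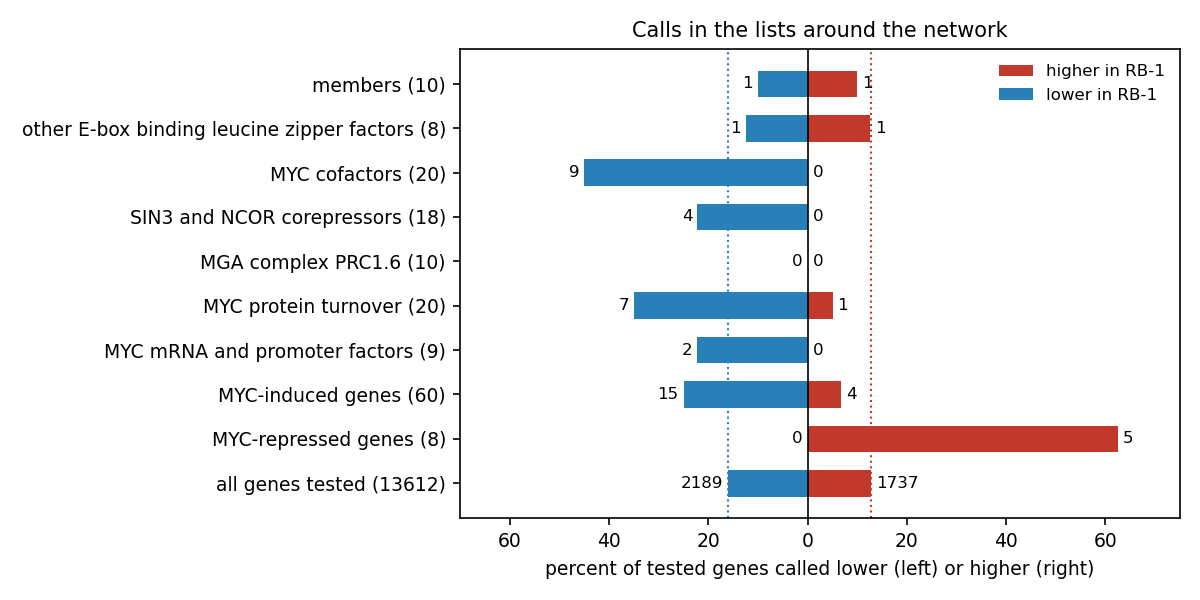
Percent of tested genes called higher (right) and lower (left) in RB-1 against DMSO in each list, with the number called at each bar, the number tested in brackets and the share over all tested genes (12.8% higher and 16.1% lower) as dotted lines. The MYC cofactor (9 lower), MYC turnover (7 lower) and MYC-induced (15 lower) lists have more genes lower than higher. So do the SIN3 and NCOR (4 lower) and MYC mRNA and promoter (2 lower) lists, and all tested genes. The MYC-repressed list has 5 higher and 0 lower.

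Genes most like each called member and MYC were found by the root mean square distance of log2 CPM, centred on each gene's mean, over the 4 libraries, in a pool of 11459 genes whose mean was at least 100 counts. Nearest to MYC were DNAJB5 (distance 0.113), CAMK1D (0.125) and ZNF548 (0.174), each with a low DMSO replicate 1: DNAJB5 had 24.0 and 20.2 CPM in RB-1, against 5.02 and 21.1 CPM in DMSO. Nearest to MXI1 were MOXD1 (0.0376), GNG10 (0.0578) and RASA4B (0.0638), and nearest to MGA were OBI1 (0.0078), CTR9 (0.0159) and EXPH5 (0.0376). With 4 libraries many genes can lie this close.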

How the data were processed

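RNA libraries were made with an mRNA kit from RB-1 and DMSO cells, per the labels' protocols. The authors deposited raw counts per gene for 4 libraries, not normalised and not pooled. Aligner, counter and strand setting: not given in the sources used here. Builds listed in the submitters' processing notes are GRCm38 and mm10, of the mouse, while all gene IDs are human, so no coordinates of the counted genes are given. Symbols matched 20148 of 20263 IDs. Lengths came from the GENCODE annotation, and exon overlaps of over 10% were named.

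Genes were kept with filterByExpr, which left 13612, and compared by edgeR 4.0.16 (R 4.3.3) with TMM factors, glmQLFit with robust estimation and glmQLFTest, two-sided, with Benjamini-Hochberg adjustment at 0.05. Both groups entered the fit without a block. A standard error is the log2 fold change divided by the square root of F. The common biological coefficient of variation was 0.251 with 2 residual degrees of freedom. Replicate libraries differed by 128 (RB-1) and 257 (DMSO) chi-square per degree of freedom, so each was kept as a sample of its own. The fit was checked on simulated counts with 200 changed genes and no shift with transcript length. These data differ on both points, so the check bears on the code and not on how well the fit suits these libraries.

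The members and gene lists were chosen with earlier results of these data known. Named were all members, in each list the 4 genes with the smallest p (all in lists of up to 3 genes), and the 3 nearest genes of MYC and each called member. One gene that this rule takes is not reported here. Alternatives were upper-quartile and RLE factors, library totals, 2 other count filters, DESeq2 1.42.0, limma-voom (limma 3.58.1), an adjusted p under 0.01, each library left out, a replicate block, a length and GC correction, both together, and edgeR's legacy fit, which was added after seeing the data.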

Additional observations from a re-analysis of the deposited data

How the results depend on the processing

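Among the members, 1 was called lower under every alternative, and 1 higher under all but the replicate block and the fit without DMSO replicate 2, each with 3. Over the fits without 1 library the number called higher was 1 to 3. The libraries share replicate numbers, which the labels do not tie to a culture or day. Deviations of same-numbered libraries correlated at -0.0959 over genes. That shows no strong shared shift, but it cannot settle whether the libraries were paired. With the replicate block the added calls were MYC (log2 fold change 1.03, edgeR adjusted p = 0.0486) and MXD1 (1.30, adjusted p = 0.00926). Signs turned for MXD3 with library totals alone (0.063), and over the fits without 1 library MAX ran from -0.15 to 0.70, MXD3 from -0.38 to 0.16 and MXD4 from -0.093 to 0.37. Over all genes, 513 were higher and 1067 lower at an adjusted p under 0.01, 1400 were lower with library totals alone, and without 1 library 522 to 1955 were higher and 1065 to 2443 lower. Of the MYC-induced genes, 1 rose and 6 fell at an adjusted p under 0.01, 8 fell with library totals alone, 7 rose and 23 fell with the replicate block and the length and GC correction together, and without 1 library 0 to 5 rose and 5 to 11 fell. The causes of these moves were not tested. With 2 libraries a group and a median standard error of 0.31 on the log2 scale, a member that did not pass may still have changed.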

Other observations

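Other leucine zipper factors that bind the E-box were measured in the same libraries. Among the 8 tested, 1 rose, 1 fell and 6 missed the threshold, with a median log2 fold change of -0.0015. Each call is 12.5% of the 8, near the 12.8% of all tested genes called higher and the 16.1% called lower. TFEB, a regulator of lysosome genes, had 6.49 and 6.12 CPM in RB-1, against 3.10 and 2.78 CPM in DMSO (log2 fold change 1.10 ± 0.33, edgeR adjusted p = 0.0324). MITF, its relative known from melanocytes, had 14.5 and 19.2 CPM in RB-1, against 35.0 and 35.5 CPM in DMSO (log2 fold change -1.06 ± 0.29, edgeR adjusted p = 0.0214). USF1 (log2 fold change 0.47) and SREBF2 (0.17) did not pass. TFEB lost its call when any 1 library was left out, and with the replicate block and the length and GC correction together. MITF lost its call without RB-1 replicate 1, without either DMSO library and with library totals alone. It also lost its call with the length and GC correction, with or without the block (log2 fold change -0.56, edgeR adjusted p = 0.0674 without it). In the fits with that correction, and in the fit without RB-1 replicate 1, another factor of the list was called lower.

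Of 9 tested factors that act on the MYC promoter or mRNA, 0 rose by edgeR, DESeq2 or limma-voom or at an unadjusted p under 0.05 (1 was called higher with the length and GC correction), 2 fell and 7 did not pass, with a median log2 fold change of -0.19. The share that fell was 22.2%, near the 16.1% of all tested genes called lower, where 12.8% were called higher. TCF7L2, the Wnt pathway factor, had 9.43 and 21.9 CPM in RB-1, against 43.5 and 74.2 CPM in DMSO (log2 fold change -1.91 ± 0.44, edgeR adjusted p = 0.0130). CTCF, the insulator protein, fell by 0.88 ± 0.25 (edgeR adjusted p = 0.0229), with 13.0% of its exon bases shared with an antisense gene. With library totals alone CTCF did not pass (edgeR adjusted p = 0.0783). Without 1 library the log2 fold change of CTCF ran from -1.02 to -0.71 and that of TCF7L2 from -2.64 to -1.43. FUBP1 (log2 fold change -0.43) and ELAVL1 (-0.33) did not pass. The number that fell was 0 without RB-1 replicate 1, 2 without RB-1 replicate 2, 1 without DMSO replicate 1, 0 without DMSO replicate 2 and 1 with library totals alone.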
